A study of Mus musculus with 4 samples.

Results

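The 2′-5′-oligoadenylate synthetase (OAS) family was followed in C3H10T1/2 cells, a mouse mesenchymal stem cell (MSC) line derived from C3H embryos, together with genes of the pathway it belongs to. The members were the rows of the deposited gene count table named Oas1a, Oas1b, Oas1c, Oas1g, Oas2, Oas3, Oasl1 and Oasl2, 8 of 54532 gene rows, each with 1 row. They were selected on the fold changes of interferon-related genes seen earlier in these same 4 libraries, so their levels and fold changes are a description and no test is attached to them. Of the 8, 5 (Oas1a, Oas1b, Oas1c, Oas2 and Oasl2) had a mean level of at least 1 CPM (counts scaled for the depth of each library) over the libraries, the filter that kept 13233 genes, and Oas1g, Oas3 and Oasl1 did not. Another 4 rows of the table carry an Oas name: Oas1d and Oas1h had no count, and Oas1e and Oas1f had at most 2 counts in any library.

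Poly(A) RNA was sequenced in 4 libraries, 1 per group. The control group received a control siRNA for 48 h and no induction. The siDNMT1 group received for 48 h an siRNA that targets DNMT1, the maintenance DNA methyltransferase, and no induction. The OB group received the control siRNA and then osteoblast (OB) induction for 3 days with 50 µM ascorbic acid, 10 mM β-glycerophosphate and 0.001 µM dexamethasone, and the siDNMT1_OB group is labelled as having received the DNMT1 siRNA and the same induction. The labels name no library kept for the same 3 days without induction. Induction therefore cannot be told apart from the added time in culture and after transfection. All 4 groups were transfected with an siRNA, and no untransfected library was analysed here. The groups are therefore compared as single libraries: the 95% intervals below come from read counting alone, say nothing of how dishes of cells vary, and rest on reads without molecular identifiers. Depth was least in OB, with 22296046 gene counts, and greatest in control, with 27367792, so a count of 3, used as the floor, equaled between 0.111 and 0.133 CPM. Dnmt1 mRNA had 265 CPM in control, 132 CPM in siDNMT1, then 85.4 CPM in OB and 93.1 CPM in the library labelled siDNMT1_OB. It was thus lower in siDNMT1 than in control, 0.497 of the control level (0.477 to 0.517), whereas the library labelled siDNMT1_OB held 1.09-fold (1.03 to 1.16) the level of OB. The mRNA of the targeted gene therefore does not check the label of that library, and DNMT1 protein was not measured in these files.

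OAS enzymes are sensors of double-stranded RNA. When they bind it, the catalytically active members join ATP into short 2′-5′-linked oligoadenylates, which serve as second messengers of the antiviral response. Their genes are textbook targets of interferon signaling, in which a transcription factor complex that includes STAT2 and IRF9 binds an interferon-stimulated response element (ISRE) near the start of transcription. Mice carry a tandem array of Oas1 paralogs where humans have a single OAS1, and Oas1b lies at the locus that sets susceptibility of laboratory strains to flaviviruses.

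All 8 members lie on chromosome 5 (GRCm38, the table's coordinates). Oasl2 (114896936 to 114912234) and Oasl1 (114923240 to 114937915) lie side by side on the plus strand. The remaining members form a separate array: Oas2 (120730333 to 120749853), Oas3 (120753098 to 120777661), Oas1c (120800194 to 120812514), Oas1g (120876142 to 120887613) and Oas1a (120896256 to 120907521) on the minus strand, and Oas1b (120812635 to 120824163) on the plus strand. Oas1b and Oas1c are thus head to head, with 120 bases between their annotated starts.

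RefSeq promoter windows (GRCm38.p6, 250 bases before to 50 after each start) were held for 6 of the 8 members, all except Oas2 and Oas1b. The core letters of the ISRE, GAAANNGAAA on either strand, were found in 4 of these 6 (Oas1a, Oas1c, Oas1g and Oas3), against 3.44% of all 32851 windows. The stretches that hold the letters are shown because they lie just upstream of genes whose mRNA differed between the libraries. They are the 100 bases before the start of Oas1a (chr5:120907526-120907625, minus strand), Oas1g (chr5:120887614-120887713, minus strand) and Oas3 (chr5:120777660-120777759, minus strand), and, read on the strand of Oas1b, the whole stretch between Oas1c and Oas1b (chr5:120812515-120812634, plus strand), which falls inside the window of Oas1c. Capitals mark the ISRE core letters.
Oas1a: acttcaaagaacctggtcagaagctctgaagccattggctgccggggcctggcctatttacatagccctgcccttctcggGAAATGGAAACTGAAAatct
Oas1g: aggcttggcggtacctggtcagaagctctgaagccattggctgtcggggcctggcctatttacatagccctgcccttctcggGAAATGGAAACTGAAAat
Oas1b: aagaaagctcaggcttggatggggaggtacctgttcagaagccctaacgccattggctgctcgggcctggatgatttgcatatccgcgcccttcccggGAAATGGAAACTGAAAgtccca
Oas3: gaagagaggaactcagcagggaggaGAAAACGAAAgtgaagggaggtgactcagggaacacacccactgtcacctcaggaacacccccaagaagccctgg

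The 3 Oas1 stretches hold the same 16 letters, 2 overlapping ISRE cores. Counted from the start of transcription, this run lies at -20 to -5 in Oas1a and -18 to -3 in Oas1g (RefSeq starts) and at -22 to -7 in Oas1b (start in the count table). In the Oas1c window it reads on the opposite strand, at -114 to -99, so it points toward Oas1b. Among all windows the 16 letters occurred in 7, or 0.0213%: those of Oas1a, Oas1g and Oas1c and 2 windows each of Apol9a and Apol9b. Oas3 had a single core, at -75 to -66. No core was found in the windows of Oasl1 and Oasl2, which says only that these letters are not in those 300 bases. The core of the GAS element, TTCNNNGAA, was in the Oas1a window alone among the 6, against 8.30% of all windows. CpG dinucleotides, the sites that DNMT1 methylates, numbered from 3 (Oas1a, Oas3 and Oasl2) to 9 (Oas1c) per window, beside a median of 7 over all windows. No methylation value was used here.

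**Figure D1:**
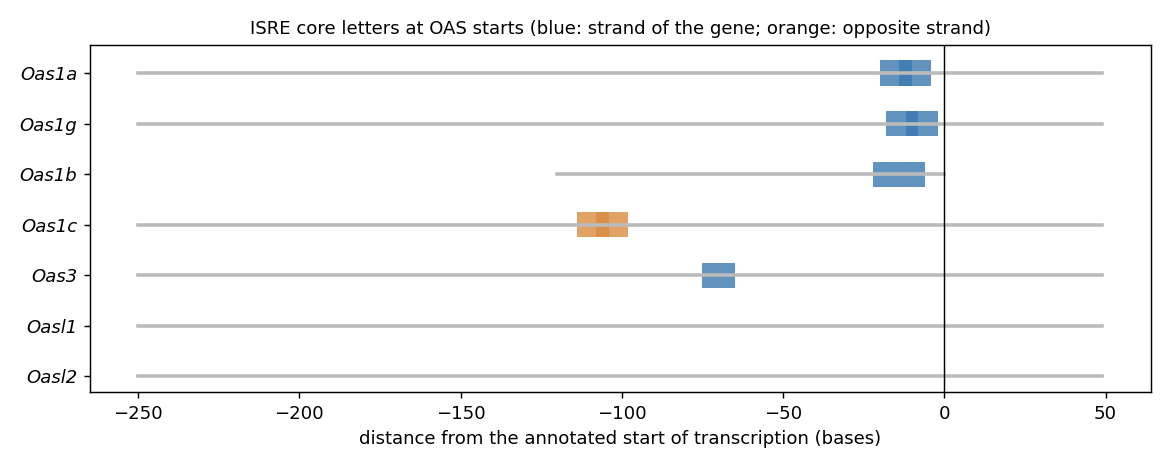
Positions of the ISRE core letters in the promoter windows of the OAS genes, in bases from the annotated start (vertical line). Gray lines are the windows, for Oas1b only the 120 bases to Oas1c; blue boxes are on the strand of the gene and orange on the opposite strand. The same pair of cores lies next to the starts of Oas1a, Oas1g and Oas1b and about 100 bases before that of Oas1c.

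The OAS members were scarce in untreated cells and higher in the induced libraries. The 8 members together had 113 counts in control (4.17 CPM), 291 in siDNMT1 (11.4 CPM), then 783 in OB (34.6 CPM) and 1398 in the library labelled siDNMT1_OB (52.2 CPM). The intervals of these 4 summed levels did not overlap. A sum does not depend on how reads are shared out within the family, which matters for Oas1a and Oas1g: 57.6% of the 50-base words of Oas1a transcripts also occur in Oas1g, so the split of reads between these 2 genes is uncertain.

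**Figure D2:**
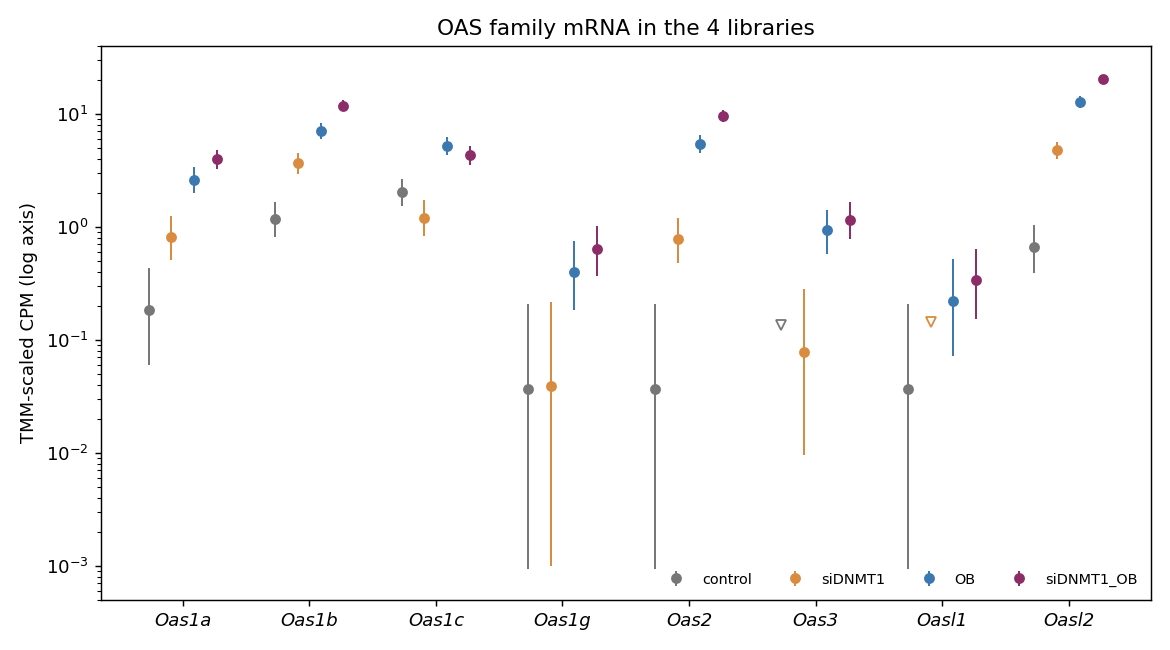
Normalized level (CPM scaled by TMM, log axis) of the 8 OAS members in each library, with exact 95% counting intervals. Open triangles stand at the upper limit for a library with 0 counts. For Oas1a, Oas1b, Oas2, Oas3 and Oasl2 the levels are ordered from control through siDNMT1 and OB to the library labelled siDNMT1_OB, whereas Oas1c is lowest in siDNMT1.

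Per kilobase of the exon length given for each gene with the counts, the order of the members differed between libraries. That length need not be the length of the transcripts present in these cells, so the order depends on it. Neighbors in an order were told apart where the 95% counting interval of their ratio lay above 1. In control, Oas1c was first at 0.843 CPM per kb, followed by Oas1b at 0.592, and these 2 could not be told apart. Oasl2 (0.104) and Oas1a (0.0978) came next, and Oas1g, Oasl1, Oas2 and Oas3 had 0 or 1 count each, so their order is not resolved. In siDNMT1, Oas1b was first at 1.84 CPM per kb, above Oasl2 at 0.747, while Oas1c had 0.503 and Oas1a 0.435, neither told apart from the gene ranked just above it. In OB, Oas1b had 3.55 CPM per kb, above Oas1c at 2.17 and Oasl2 at 2.00, which could not be told apart. Oasl2 stood above Oas1a at 1.38, and Oas1a was not told apart from Oas2 at 1.22. In the library labelled siDNMT1_OB, Oas1b had 5.93, Oasl2 3.21 and Oas2 2.15 CPM per kb, each above the next, and from Oas2 through Oas1a (2.12) to Oas1c (1.79) no neighbors were told apart. Oas1g, Oas3 and Oasl1 were the lowest members in both induced libraries, at 0.0848 to 0.271 CPM per kb. Oas1b is annotated as a polymorphic pseudogene in GENCODE M21 because several laboratory strains carry a premature stop codon in it. It had the highest level per kilobase of exon length in every library but control. In those libraries Oasl2 had more counts than Oas1b: 122 and 94 in siDNMT1, 288 and 160 in OB, and 547 and 316 in the library labelled siDNMT1_OB. The rank of Oas1b there thus rests on exon lengths of 6.37 kb for Oasl2 and 1.99 kb for Oas1b.

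To see how the members stood after OB induction, the OB library was compared with control, and the library labelled siDNMT1_OB with siDNMT1. All 8 members had a log2 fold change (prior count 2) of at least 1 in size, the threshold for a call, in both comparisons and all were higher. Over the 13233 genes that passed the filter, 10.6% were called higher and 7.1% lower in OB against control. For the library labelled siDNMT1_OB against siDNMT1 these shares were 6.83% and 2.71%. Of the members, 3 did not pass the filter that these shares rest on. Oas1a and Oas2 passed it only through the induced libraries, with less than 1 CPM in both control and siDNMT1. The median log2 fold change of the members was 2.93 in OB against control and 2.29 in the library labelled siDNMT1_OB against siDNMT1, or 2.79 and 2.13 with Oas3 and Oasl1 at their lower bounds where they had no count. Over all genes that passed the filter it was 0.01 and 0.00. The summed OAS level was 8.31-fold (6.82 to 10.2) that of control in OB, 26.2-fold (16.8 to 43.3) without the Oas1 paralogs and 13.8-fold (10.5 to 18.3) without Oas1c. It was 4.60-fold (4.05 to 5.24) that of siDNMT1 in the library labelled siDNMT1_OB.

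Oasl2, an OAS-like protein, had 0.664 CPM in control and 12.7 CPM in OB, 19.2-fold (11.9 to 32.8). It had 4.76 CPM in siDNMT1 and 20.4 CPM in the library labelled siDNMT1_OB, 4.29-fold (3.52 to 5.27). The fold was larger in OB against control, where the starting level was lower. Oas2, which makes dimeric or longer oligoadenylates at moderate concentrations of double-stranded RNA, had a single count in control and 123 in OB (5.44 CPM), a ratio of 148 whose interval runs from 26.0 to 5874. It had 20 counts in siDNMT1 and 256 in the library labelled siDNMT1_OB (0.781 and 9.57 CPM), 12.3-fold (7.77 to 20.4). Both members were lowest in the control library.

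Oas1a, a catalytically active synthetase, had 0.184 CPM in control and 2.61 CPM in OB, 14.2-fold (5.73 to 45.2). It had 0.820 CPM in siDNMT1 and 4.0 CPM in the library labelled siDNMT1_OB, 4.88-fold (3.04 to 8.20). Together with its near copy Oas1g the sums were 6, 22, 68 and 124 counts in control, siDNMT1, OB and the library labelled siDNMT1_OB, so the direction does not rest on the split between the 2 genes. Oas1g alone had 1, 1, 9 and 17 counts in the same order. It was higher in both induced libraries than in both untreated libraries.

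Oas1b had 1.18 CPM in control and 7.07 CPM in OB, 6.0-fold (4.08 to 9.06), and in siDNMT1 and the library labelled siDNMT1_OB 3.67 and 11.8 CPM, 3.22-fold (2.55 to 4.10). Oas1c had 2.03 CPM in control and 5.22 CPM in OB, 2.57-fold (1.85 to 3.61), and 1.21 CPM in siDNMT1 and 4.30 CPM in the library labelled siDNMT1_OB, 3.55-fold (2.37 to 5.47). Oas3, a large member with high affinity for long double-stranded RNA, had no count in control and 21 in OB, at least 8.40-fold higher against a floor of 3 counts, while the exact counting interval has a lower limit of 6.25-fold. It had 2 counts in siDNMT1 and 31 in the library labelled siDNMT1_OB, a ratio of 14.8 (3.78 to 128). Oasl1, known in mice as a repressor of Irf7 translation, had 1 count in control and 5 in OB, a ratio of 6.0 whose interval (0.671 to 284) includes 1, and with a prior count of 5 in place of 2 it was not called (log2 0.84), which left 7 of the 8 members called. It had no count in siDNMT1 and 9 in the library labelled siDNMT1_OB, at least 2.87-fold higher against the floor, with a lower counting limit of 1.89-fold. For these low members the depth sets no more than a direction.

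**Figure D3:**
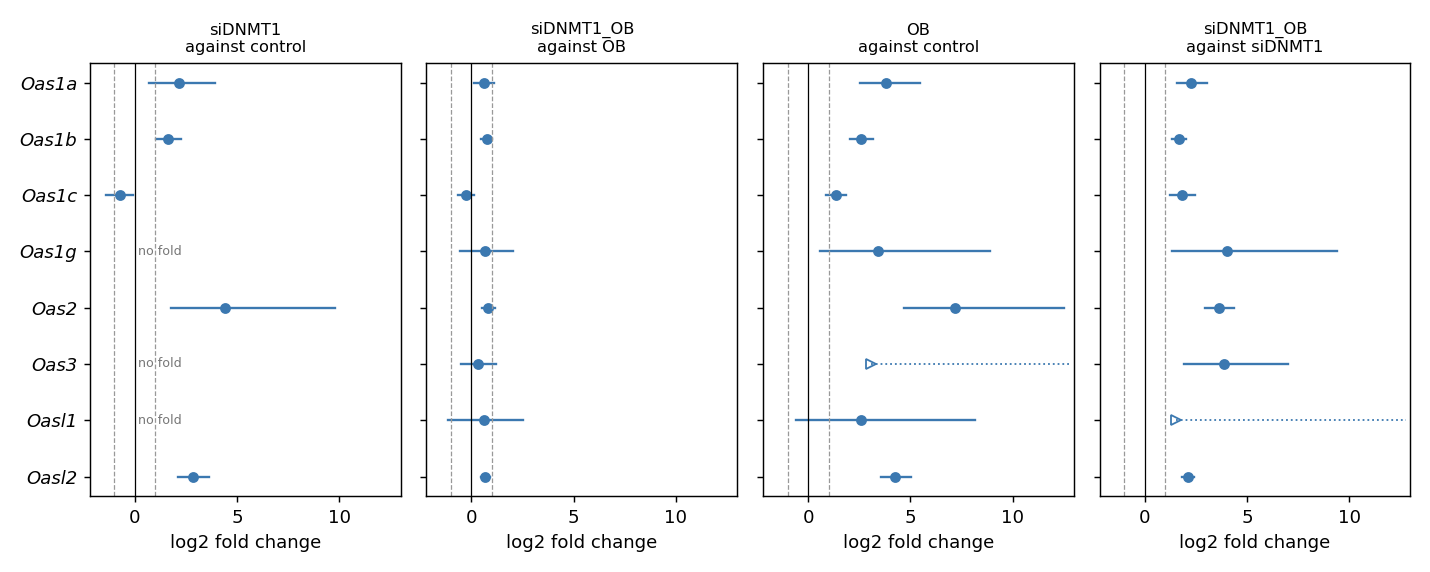
Log2 fold change of the scaled counts, with no prior count, for the 8 OAS members in the 4 comparisons; bars are exact 95% counting intervals. Dashed lines mark a log2 fold change of 1 in size; open arrows are lower bounds against 3 counts; genes with at most 3 counts in both libraries have no fold. In the comparison of the library labelled siDNMT1_OB with OB all points lie between -1 and 1.

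To see how the members stood after transfection with DNMT1 siRNA before induction, siDNMT1 was compared with control. This comparison shares the control library with that of OB against control, so the low control levels enter both. Oas1a, Oas1b, Oas2 and Oasl2, 4 of the 8, were called higher, Oas1c was not called, and Oas1g, Oas3 and Oasl1 had at most 3 counts in both libraries and get no fold. No member was called lower. Over all genes that passed the filter, 1.97% were called higher and 1.37% lower. The median log2 fold change of the 5 members with a fold was 1.77, beside 0.00 over all genes. Oasl2 was 7.18-fold (4.35 to 12.5) higher in siDNMT1, Oas1a 4.45-fold (1.63 to 15.1) and Oas1b 3.11-fold (2.06 to 4.80). Oas2 had 1 count in control and 20 in siDNMT1, a ratio of 21.2 (3.39 to 878). Oas1c went the other way, with 55 counts in control and 31 in siDNMT1, 0.597 of the control level (0.371 to 0.943). The summed level was 2.73-fold (2.19 to 3.42) that of control, 1.88-fold (1.46 to 2.45) without Oasl2, which lies under the threshold for a call. It was 7.62-fold (4.76 to 12.9) without the Oas1 paralogs and 4.75-fold (3.56 to 6.42) without Oas1c, the latter sum added after the values were seen.

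In induced cells, the library labelled siDNMT1_OB against OB gave smaller values. No member reached the threshold in either direction, while 2.36% of all genes were called higher and 1.37% lower. Of the 8 members, 7 had a positive log2 fold change and Oas1c a negative one, with a median of 0.59 (0.01 over all genes). The counting interval lay above 0 for 4 members. Oas2 was 1.76-fold (1.41 to 2.20) higher in the library labelled siDNMT1_OB and Oas1b 1.67-fold (1.38 to 2.03). Oasl2 was 1.61-fold (1.39 to 1.86) higher there and Oas1a 1.53-fold (1.1 to 2.14). Oas1c stood at 0.824 of the OB level (0.631 to 1.07), an interval that includes 1, as did those of Oas1g, Oas3 and Oasl1. The summed level was 1.51-fold (1.38 to 1.65). Dnmt1 mRNA in this pair, at 1.09-fold, was not lower in the library labelled siDNMT1_OB.

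The untreated and induced pairs share no library, so their log2 ratios can be subtracted. The difference (induced pair minus untreated pair, with an interval from the 4 counts and no replicate check) was -2.16 (-2.90 to -1.42) for Oasl2, -1.54 (-3.02 to -0.06) for Oas1a and -0.90 (-1.54 to -0.26) for Oas1b. For Oas2 it was -3.59 (-6.50 to -0.68), where the control library held a single read. For these members the libraries of the untreated pair thus differed more than those of the induced pair, as far as counting error goes. Dnmt1 mRNA also differed between the pairs (0.497-fold and 1.09-fold), and its part in the result was not tested. For Oas1c the difference was 0.46 (-0.27 to 1.20), an interval that includes 0. The summed OAS level differed by -0.85 (-1.19 to -0.52), and by -1.54 (-1.97 to -1.11) without Oas1c.

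Because every share of the OAS reads within a library is free of the scaling between libraries, the makeup of the family was also described. Each share depends on transcript length, so a gene is compared with itself across libraries. Oas1c held 48.7% of the OAS reads in control (39.2 to 58.3), 10.7% in siDNMT1 (7.35 to 14.8), then 15.1% in OB (12.6 to 17.8) and 8.23% in the library labelled siDNMT1_OB (6.84 to 9.79). Oasl2 held 15.9% in control (9.72 to 24.0) and 41.9%, 36.8% and 39.1% in the other libraries. Oas2 held 0.885% in control, 6.87% in siDNMT1, and 15.7% and 18.3% in the induced libraries, with the interval of siDNMT1 (4.25 to 10.4) below those of both. Oas1b held 28.3% in control (20.2 to 37.6) and 32.3% in siDNMT1 (27 to 38.0), the latter above OB at 20.4% (17.7 to 23.4) and the library labelled siDNMT1_OB at 22.6% (20.4 to 24.9) without overlap. Oas1c thus had the largest share in control and Oasl2 in the other libraries.

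**Figure D4:**
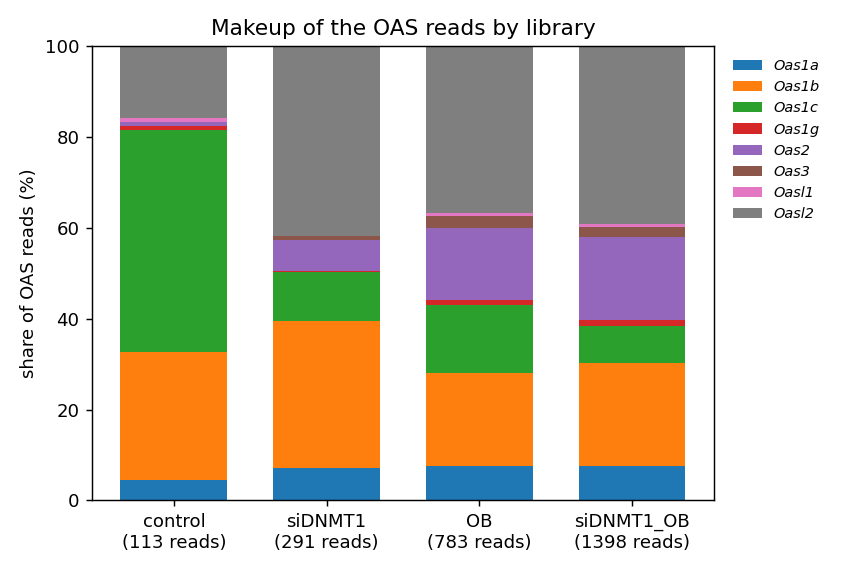
Share of the summed OAS reads (percent) held by each of the 8 members in each library; the number of OAS reads is given under each bar. Oas1c has the largest share in control and Oasl2 in the other 3 libraries.

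The head-to-head pair Oas1b and Oas1c was also compared within each library. Per kilobase, the ratio of Oas1b to Oas1c was 0.702 in control (0.440 to 1.11), 3.66 in siDNMT1 (2.42 to 5.69), then 1.64 in OB (1.28 to 2.09) and 3.32 in the library labelled siDNMT1_OB (2.67 to 4.14). The ratio was higher in siDNMT1 than in control, without overlap of the intervals, and OB stood above control and below siDNMT1. It was also higher in the library labelled siDNMT1_OB, without overlap with OB. The 16-letter run with 2 ISRE cores between these genes ends at -7 from Oas1b. It also lies in the Oas1c window, at -114 to -99 on the opposite strand. Any part of the run in these ratios was not tested. Of the transcript words of Oas1c 15.1% occur in other genes, and its exons share 227 bases with Gm43069 on the opposite strand, which had at most 3 counts in any library.

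Genes near the members were examined as well. Within 100 kb of a member the table lists 31 other genes, of which 15 had no count in any library and 5 passed the filter (1500011B03Rik, 2210016L21Rik, 2610524H06Rik, Ankrd13a and Sppl3). None of these 5 was called in any of the 4 comparisons. Over all genes that passed the filter, at most 10.6% were called higher and 7.1% lower, both in OB against control. The absence of calls therefore does not set these 5 apart from other genes. Their log2 fold changes lay between -0.33 and 0.73 in OB against control and between -0.18 and 0.09 in siDNMT1 against control. In the induced pair they lay between -0.78 and 0.04, with 1500011B03Rik at -0.78 (-1.09 to -0.49) and 2610524H06Rik at -0.60. In size both values lay within the range of the members in that pair, where Oas2 was largest at 0.81. All 5 lie beside Oasl1 and Oasl2, and no gene near the other 6 members passed the filter. The genes that share the 16-letter run outside the array, Apol9a and Apol9b, were looked up after that run was found. Apol9b had 3.80, 5.78, 10.2 and 15.3 CPM in control, siDNMT1, OB and the library labelled siDNMT1_OB, and Apol9a 10.2, 14.6, 21.2 and 29.0 CPM. Their levels were in the same order as those of Oas1a and Oas1b, with smaller folds: 1.52 (1.18 to 1.98) for Apol9b and 1.44 (1.23 to 1.69) for Apol9a in siDNMT1 against control. Oas1c, whose window also holds the run, stood at 0.597 of the control level there, and Oas1g had 1 count in both libraries. Any part of the run in these levels was not tested. Reads shared between Apol9a and Apol9b were not examined.

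Abce1 and Pde12, fixed as a short list beside the family, were not called in any comparison. Abce1, a ribosome recycling factor, had 212 CPM in control and 117 CPM in OB, 0.550 of the control level (0.525 to 0.576), with 181 CPM in siDNMT1 and 145 CPM in the library labelled siDNMT1_OB. Pde12, a phosphodiesterase that degrades the oligoadenylates, had 26.8, 22.1, 18 and 19.1 CPM in the same libraries in the order control, siDNMT1, OB and the library labelled siDNMT1_OB. Both were highest in control, the library in which the summed OAS level was lowest.

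The route by which interferon acts on OAS genes was described by a list of 12 genes (ligand, receptors, kinases, transcription factors and feedback inhibitors) and by 7 other proteins that bind double-stranded RNA or relay its signal. With Abce1 and Pde12 these made 21 genes. In siDNMT1 against control 4 of the 21 (Irf9, Irf7, Usp18 and Dhx58) were called higher and none lower, with Ifih1 just under the threshold. Dhx58 was just above it, and with a prior count of 5 it was not called, which left 3. In the induced pair none of the 21 was called. In OB against control 8 were called higher and 1 lower, and in the library labelled siDNMT1_OB against siDNMT1 5 were called higher and none lower. These calls stand beside the shares of all genes given above. The medians of the 20 with a fold (all but Ifnb1) were 0.25, 0.11, 0.40 and 0.15 on the log2 scale in these 4 comparisons.

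Among the factors that bind the ISRE, Irf9 had 18.1 CPM in control, 55.3 in siDNMT1, then 67.1 in OB and 87.3 in the library labelled siDNMT1_OB. Stat2 had 60.5, 105, 154 and 196 CPM in the same order. Both were called higher in OB against control, and Irf9 (3.06-fold, 2.76 to 3.39) in siDNMT1 against control, where Stat2 stood at 1.73-fold (1.63 to 1.84). Irf7, the interferon-induced regulator of interferon genes, had 2.25, 7.26, 13.7 and 15.5 CPM. Usp18, a feedback inhibitor at the interferon receptor, had 0.922, 6.17, 8.14 and 15.4 CPM, 6.69-fold (4.37 to 10.7) in siDNMT1 against control. Both were called higher in every comparison except the induced pair.

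The upstream components behaved differently. The log2 fold changes of the receptor chains Ifnar1 and Ifnar2, the kinases Jak1 and Tyk2, and Irf1 and Irf3 lay between -0.55 and 0.37 in all 4 comparisons, and none was called. Socs1, an inhibitor of JAK kinases, was called lower in OB against control, 0.490 of the control level (0.401 to 0.596), a call that was lost under scaling by total counts or the upper quartile. Ifnb1, the gene of interferon beta, had 1, 0, 2 and 0 counts and gets no fold. In a list of interferon ligand rows added after the values were seen, 16 of 21 had no count in any library, and all rows other than Ifnz had at most 4 counts. Ifnz had 254, 314, 269 and 254 counts, but 76.9% of its 50-base words occur in other genes, mostly Gm13288, so its counts are uncertain.

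**Figure D5:**
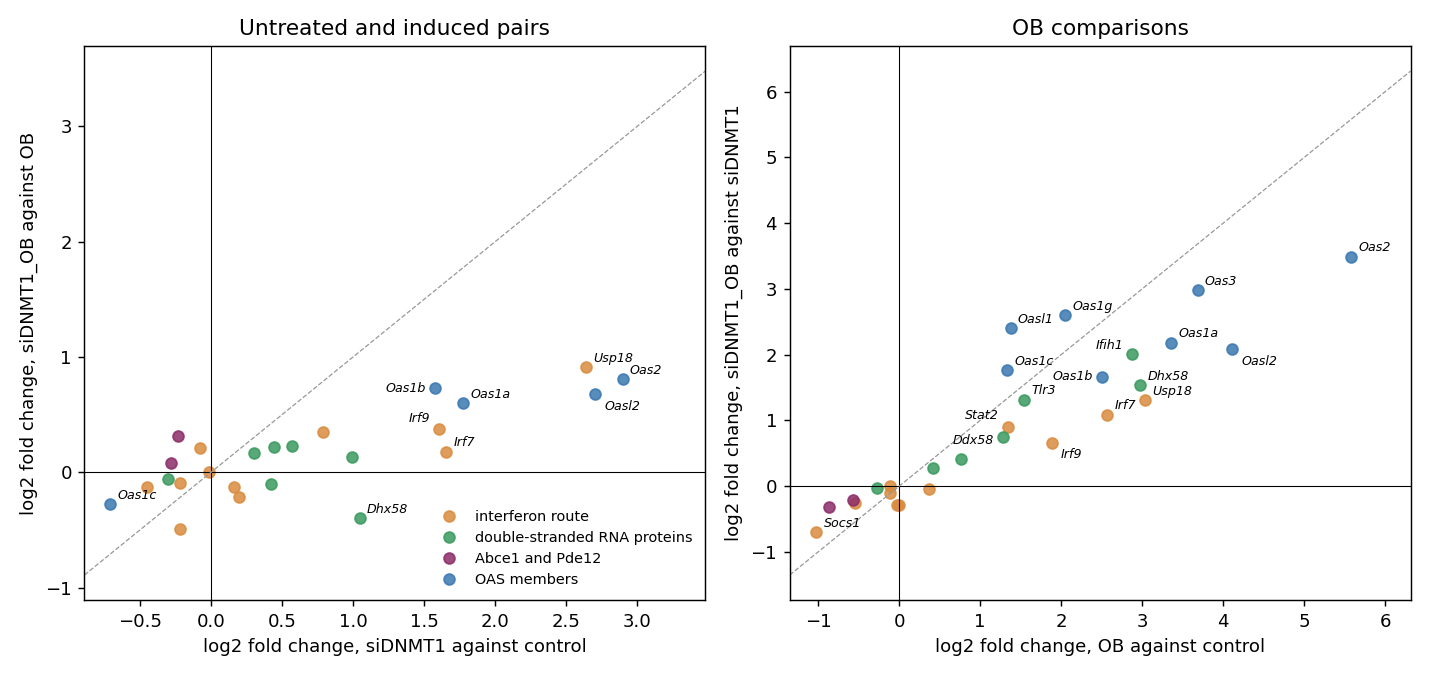
Log2 fold changes (prior count 2) of the OAS members and the 20 pathway genes that have a fold. Left, siDNMT1 against control (horizontal) and the library labelled siDNMT1_OB against OB (vertical); right, OB against control (horizontal) and the library labelled siDNMT1_OB against siDNMT1 (vertical). The axes of each panel share no library and dashed lines mark equal values. Oasl2 stands at 2.71 and 0.68 on the left and at 4.11 and 2.08 on the right.

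Of the other double-stranded RNA proteins, the cytosolic sensor Ifih1 (MDA5) had 1.25 CPM in control, 2.58 in siDNMT1, then 9.68 in OB and 10.6 in the library labelled siDNMT1_OB. Dhx58 (LGP2), a regulator of these sensors, had 1.62, 3.43, 13.3 and 10.1 CPM, so that it was 2.12-fold (1.46 to 3.11) in the untreated pair and 0.758-fold (0.641 to 0.896) in the induced pair. The endosomal receptor Tlr3 (2.94-fold, 2.43 to 3.57) and the sensor Ddx58 (RIG-I; 2.43-fold, 2.27 to 2.59) were called higher in OB against control. Eif2ak2 (PKR), which halts translation when it binds double-stranded RNA, had 53.0, 78.9, 90.0 and 106 CPM, and the editing enzyme Adar had 38.1, 47.2, 51.1 and 57.3 CPM. The adaptor Mavs had 38.2, 31.0, 31.5 and 30.3 CPM. Eif2ak2, Adar and Mavs were not called in any comparison. Of the 19 pathway genes with a RefSeq window, 5 held the ISRE core letters (Stat2, Socs1, Ifih1, Ddx58 and Eif2ak2), beside 3.44% of all windows. Among the pathway genes called higher in siDNMT1 against control, Irf9 and Irf7 held none, and Usp18 and Dhx58 had no window.

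The levels of markers were checked beside these results. The 8 mesenchymal markers, led by Col1a1, Col1a2 and Vim, summed to 24654 CPM in control and to at most 31276 CPM, in the library labelled siDNMT1_OB. The sum is carried by these 3 genes. Pdgfra, a receptor of mesenchymal progenitors, was 5.53-fold (5.33 to 5.73) in OB against control and 2.94-fold (2.83 to 3.06) in the library labelled siDNMT1_OB against siDNMT1, and Thy1 was 2.34-fold (2.12 to 2.59) in the latter, all called higher in the comparisons in which the OAS members were. Among 7 immune markers, Ptprc had at most 2 counts, Itgam and Cd3e at most 1, and Adgre1, Ncr1 and Siglech none, while Cd68, a lysosomal protein found in other cells too, had 47 to 62 counts. The summed immune markers lay between 1.84 CPM in control and 2.70 CPM in OB. The epithelial and endothelial markers Epcam, Cdh1, Pecam1 and Cdh5 summed to 0.531 CPM in OB and 1.25 CPM in control, and Epcam had no count. The part of these marker differences in the OAS values was not tested. In bulk RNA a change in the number of expressing cells and a change in the mRNA per cell cannot be told apart.

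The 5 genes outside the family whose pattern over the 4 libraries lay closest to the average of the 5 filtered members were E230013L22Rik, Robo2, Matn4, Fgfr2 and Depp1, at Euclidean distances of 0.191 to 0.294 on centered log2 CPM, beside a median of 3.08 over 13228 genes. With 4 points per gene this is a description only. Fgfr2, a fibroblast growth factor receptor, had 7.56, 30.3, 69.0 and 113 CPM in control, siDNMT1, OB and the library labelled siDNMT1_OB, and was 1.65-fold (1.55 to 1.75) higher in the last of these than in OB. Matn4, a matrix protein of the matrilin family, had 1.62, 5.15, 16.2 and 30.6 CPM. None of the 5 belongs to the interferon lists described above.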

How the data were processed

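Poly(A) RNA of 4 samples was measured by paired-end sequencing. The authors trimmed reads with Trimmomatic, aligned them to mm10 with HISAT2 and deposited raw counts per gene from featureCounts; versions, strand use and the treatment of multiply aligned reads are not given in the sources used here. Of 54495 genes shared with GENCODE M21, 98.3% had the same start and end. From the deposited counts, edgeR 4.0.16 under R 4.3.3 gave TMM factors (0.991 to 1.01) from the 13233 genes with a mean of at least 1 CPM. Folds are ratios of scaled counts, with exact conditional binomial intervals (95%, Clopper-Pearson). A call needed a log2 fold change, with a prior count of 2, of at least 1 in size. With 1 library per group no p-value across conditions was computed. Folds against 0 counts are bounds against 3 counts in that library, and none is given where both libraries had at most 3. The calculation was tested on simulated data. Alternatives comprised other scalings, filters, prior counts, thresholds, a read test and sums leaving out members. The members, the gene lists, the tests and the rule for named genes (all members and list genes, filtered genes within 100 kb and the 5 genes of closest pattern) were chosen with earlier results of these data known. Some genes of these lists are not reported here and enter no count of a list.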

Additional observations from a re-analysis of the deposited data

Results flagged for a closer look

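Dhx58 was higher in siDNMT1 than in control by 1.05 on the log2 scale whereas the library labelled siDNMT1_OB stood below OB (-0.40), so the untreated and the induced pair had opposite signs, a difference of -1.44. Dnmt1 itself also changed sign between the pairs, from -1.01 in untreated cells to 0.13 in induced cells, a difference of 1.13. With 1 library per group neither difference was tested.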

How the results depend on the processing

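No paired analysis was possible because each group holds a single library. In all, 507 values were recomputed under alternative settings and none of the fold changes or sums among them changed direction. Folds of single members moved by over 1.5 times, on the unlogged scale, only with another prior count, 8 of them with a prior count of 0.5 and 7 with one of 5. As log2 values with these 2 prior counts, in OB against control Oas2 (reported 5.58) was 6.60 and 4.60, Oas3 (3.68) 5.60 and 2.52, Oas1g (2.05) 2.89 and 1.35, and Oasl1 (1.38) 2.09 and 0.84. In siDNMT1 against control Oas2 (2.90) was 3.83 and 2.07. In the library labelled siDNMT1_OB against siDNMT1, Oas1g (2.60) was 3.48 and 1.82, Oas3 (2.98) 3.59 and 2.31, and Oasl1 (2.40) 4.18 and 1.44. With a prior count of 5 the loss of Oasl1 in OB against control left 7 members called higher there (reported 8), beside 10.3% of all genes. When the filter was raised to a mean CPM of 5, 2 members were called higher in siDNMT1 against control (reported 4; 1.02% of all genes), 2 in OB against control (reported 8; 7.62%) and 2 in the library labelled siDNMT1_OB against siDNMT1 (reported 8; 4.70%). Only Oas1b (mean 5.94 CPM) and Oasl2 (9.67) passed that filter, so every member left was called. Both passed it through the induced libraries. In control and siDNMT1 Oas1b had 1.18 and 3.67 CPM, and Oasl2 0.664 and 4.76 CPM. The filter thus favors members that are high after induction, and these calls add no separate support. With members held to a mean CPM of at least 1, 5 were called in OB against control and in the library labelled siDNMT1_OB against siDNMT1. The setting with an added read test also gave 5 in both, and all genes stood at 10.6% and at most 6.83%. The counting interval lay above 1 for 7 members in the former comparison and for all 8 in the latter. The read test covered only genes that passed the filter, so Oas1g, Oas3 and Oasl1 were not in it. The drop to 5 is thus that of the filter, and the read test removed no further member. With a log2 threshold of 0.58, 1 member was called lower in siDNMT1 against control (4.55% of all genes) and 5 were called higher in the induced pair (6.85%), where 0 had been reported. The log2 fold change of the summed level depended on its members. In siDNMT1 against control it was 1.45 for all 8, 0.91 without Oasl2, 2.93 without the Oas1 paralogs and 2.25 without Oas1c. In OB against control it was 3.05, and 2.64, 4.71 and 3.78 without the same members. In the library labelled siDNMT1_OB against siDNMT1 it was 2.20, and 2.49 without the Oas1 paralogs. The difference between the pairs was -0.85, and -1.54 without Oas1c. The sums without Oas1c, the mean CPM of at least 1 for members and TMM factors over all genes were added after the data were seen. Other scalings moved the median gene by less than 0.05 and changed no call of a member. With total counts or the upper quartile, calls near the threshold changed: in siDNMT1 against control Ifih1 (reported 0.99; 1.02 with the upper quartile) was called, which made 5 of the 21 pathway genes higher, and Dnmt1 (-1.01; -0.98) was not, while in OB against control Socs1 was no longer called lower. A prior count of 0.5 also gave 5 of the 21, and one of 5 gave 3, without Dhx58. The pathway counts under other settings were added after the data were seen. Depth limits Oas1g, Oas3 and Oasl1, which had 0 to 2 counts in the untreated libraries.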
